A study of Drosophila melanogaster with 3 samples.

Results

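The genes elav, fne and Rbp9 make up the ELAV family of Drosophila melanogaster, and the data described here are all ChIP-seq summits of Pif1A, a protein named for its interaction with a PFTAIRE kinase, that lie in these 3 genes or within 5 kb of them. A summit is the position of the highest signal of a peak. The rule found 78 summits, of 127283 peaks in 5 lists on the dm6 build: 17 at elav, 40 at fne and 21 at Rbp9. These are entries of lists, and 1 site can be counted in each list. Joined where neighbours lay within 150 bp, the replicate summits made 6 sites at elav, 18 at fne and 7 at Rbp9. Of these, 2 at elav, 11 at fne and 3 at Rbp9 were in 1 replicate alone. The share of such sites over all genes was not computed, so these counts do not set any of the 3 genes apart. The lists are those of replicates 1, 2 and 3 and of the pooled replicates, with 30000 peaks each, and the 7283 peaks that the authors kept as optimal by IDR (irreproducible discovery rate). The replicate and pooled lists hold background as well as peaks, so their entries are not a count of bound sites. At fne, only 1 of the 11 pooled summits ranked 7283 or better. Of the 78 summits, 5 are in the optimal list, 2 at elav, 2 at Rbp9 and 1 at fne. The rule takes the genes by family and uses no signal value, though it was set with earlier results of these data known.

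The 3 libraries are 1 group: whole pupae of mixed sex and unknown age from a transgenic line that stably carries Pif1A with GFP at its C terminus, precipitated with an antibody against GFP. Chromatin was sonicated to 200 to 800 bp, and the labels number the libraries as biological replicates 1, 2 and 3. No flies without the tag are analysed here, so signal that needs the tagged protein and signal that does not cannot be told apart. Whole pupae mix neurons with all other tissues, and a summit at a neuronal gene does not show in which cells the signal arose. With 1 group and lists that hold no read counts, depth is unknown and no test between conditions can be made. Values are therefore given as ranks within a list, by the authors' score of each peak, with their spread over the 3 replicates and the same count over all 13968 protein-coding genes beside them.

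ELAV proteins carry RNA recognition motifs and bind U-rich stretches of transcripts, and the vertebrate Hu proteins are their relatives. ELAV itself is made in neurons from shortly after their birth, where it directs alternative splicing and favours long 3' ends, so an antibody against it is a standard mark of fly neurons. FNE, "found in neurons", is a largely cytoplasmic relative, and RBP9 acts in the nervous system and in the female germ line.

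The 5 optimal summits are shown with the 100 bp on either side, because they are where the strongest signal of the family lay. All are the forward strand of dm6, read from the RefSeq genome of the same assembly. Capitals mark matches on either strand to 10 words of fly promoter and enhancer factors, searched by letters alone. The stronger elav summit is the middle base of chrX:523395-523595, upstream of the gene, and the weaker one that of chrX:522538-522738, in its first intron. The fne summit is the middle base of chrX:12925911-12926111, in the long intron of the longest transcripts. The stronger Rbp9 summit is the middle base of chr2L:2957628-2957828 and the weaker one that of chr2L:2956421-2956621, both in introns.
elav, stronger: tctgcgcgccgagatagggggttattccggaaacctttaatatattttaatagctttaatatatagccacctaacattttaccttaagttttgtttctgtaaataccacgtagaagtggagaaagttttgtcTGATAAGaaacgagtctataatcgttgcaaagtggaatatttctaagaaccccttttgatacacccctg
elav, weaker: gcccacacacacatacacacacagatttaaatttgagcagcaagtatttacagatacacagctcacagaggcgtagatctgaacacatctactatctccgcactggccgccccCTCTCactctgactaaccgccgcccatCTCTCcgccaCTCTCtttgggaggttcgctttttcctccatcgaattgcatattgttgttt
fne: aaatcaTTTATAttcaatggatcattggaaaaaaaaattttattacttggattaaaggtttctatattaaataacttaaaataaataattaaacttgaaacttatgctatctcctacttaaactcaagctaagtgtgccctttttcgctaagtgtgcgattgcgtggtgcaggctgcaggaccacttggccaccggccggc
Rbp9, stronger: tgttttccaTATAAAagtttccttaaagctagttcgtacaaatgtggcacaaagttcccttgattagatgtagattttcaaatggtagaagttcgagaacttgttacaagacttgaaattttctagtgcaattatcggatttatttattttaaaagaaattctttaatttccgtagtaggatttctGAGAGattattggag
Rbp9, weaker: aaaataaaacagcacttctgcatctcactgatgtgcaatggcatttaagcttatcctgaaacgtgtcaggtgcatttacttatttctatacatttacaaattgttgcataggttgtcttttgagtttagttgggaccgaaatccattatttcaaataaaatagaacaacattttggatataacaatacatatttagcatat

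At elav, the strongest summit of the family lay upstream of the main start of the gene in all 3 replicates. The gene (FBgn0260400) spans chrX:509235-523226 on the reverse strand, has 4 annotated transcripts and 2 transcription start sites (TSSs), and sits inside arg, the arginase gene, which runs on the other strand. The stronger summit, at X position 523495, lay 269 bp upstream of the TSS at 523226 that elav shares with lncRNA:enrr, in an intron of arg. It scored 868 and ranked 135 of 7283 in the optimal list. In the replicates it ranked 137, 175 and 113 in replicates 1, 2 and 3, with scores of 265, 285 and 320 on each list's own scale. These ranks are close together, with a mean of 142 ± 31.3 (SD, n = 3). The highest rank number was 1.55 times the lowest, beside a median of 1.83 and quartiles of 1.46 and 2.44 over the 6323 optimal peaks found in all 3 replicates at any rank.

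The weaker elav summit, at 522638, lay in the first intron, 588 bp downstream of the same TSS and 857 bp from the stronger one. It scored 215 in the optimal list, at rank 2263. It ranked 1531 in replicate 1, 2263 in replicate 2 and 4827 in replicate 3, a mean of 2874 ± 1731 (SD, n = 3). Its place thus varied more than that of the stronger summit, with a ratio of 3.15 between the highest and lowest rank numbers. Its peak was 184 bp wide in the optimal list, whereas the most common width there was 424 bp, and 33.2% of all optimal peaks were narrower than that.

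The other summits at elav were low in rank or missing from some of the lists. The TSS at 520285, used by the transcript elav-RB, had its nearest summit 986 bp upstream, in replicate 2 alone and at rank 26874. The long 3' UTR, known for its neuronal extension, held 1 summit in the 5 lists, at 512885, at rank 11361 in replicate 2. A summit at 524588, 1362 bp upstream of the TSS at 523226, ranked 4960 in replicate 3. Replicate 2 had a summit 79 bp from it at rank 16166, and replicate 1 and the pooled list had none within 1000 bp.

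At Rbp9, the signal lay around the middle of its 3 start sites. The gene (FBgn0010263) spans chr2L:2954762-2968434 on the forward strand and has 9 annotated transcripts. The stronger summit, at 2957728, lay in an intron 817 bp downstream of the TSS at 2956911. It scored 410 in the optimal list and ranked 809. In replicates 1, 2 and 3 it ranked 1381, 520 and 891, a mean of 931 ± 432 (SD, n = 3), with scores of 93.6, 181 and 138. It was lowest in replicate 1, and the ratio of its rank numbers, 2.66, was above the upper quartile for optimal peaks.

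The weaker Rbp9 summit, at 2956521, lay 390 bp upstream of that TSS, within the intron of the transcripts that start further upstream. It scored 170 and ranked 3172 in the optimal list. Its ranks of 2891, 3300 and 4094 in replicates 1, 2 and 3 gave a mean of 3428 ± 612 (SD, n = 3). The 2 summits were 1207 bp apart. A summit 55 bp from the last start site, at 2959147, was seen in replicate 2 alone, at rank 21683. One 226 bp upstream of the first start site, at 2954762, was also in replicate 2 alone, at rank 15865. A further place in an intron had low summits in all 3 replicates and no pooled summit within 250 bp. These lay at 2955834, 2955686 and 2955659 in replicates 1, 2 and 3, at ranks 16495, 12911 and 10009. Replicate 3 had another at 2955861, at rank 17940.

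elav and Rbp9 shared an arrangement, with 1 optimal summit up to 500 bp upstream of a TSS and another more than 500 and up to 1000 bp downstream of it. Their order of strength was opposite: the upstream summit was the stronger at elav and the downstream one at Rbp9. Such a pair of summits was found at 1.06% of all protein-coding genes (148). The arrangement was looked for after it had been seen at these genes, so its share is a description. Close neighbours as such were common, since 41.5% of optimal peaks had another optimal summit within 1500 bp.

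**Figure D1:**
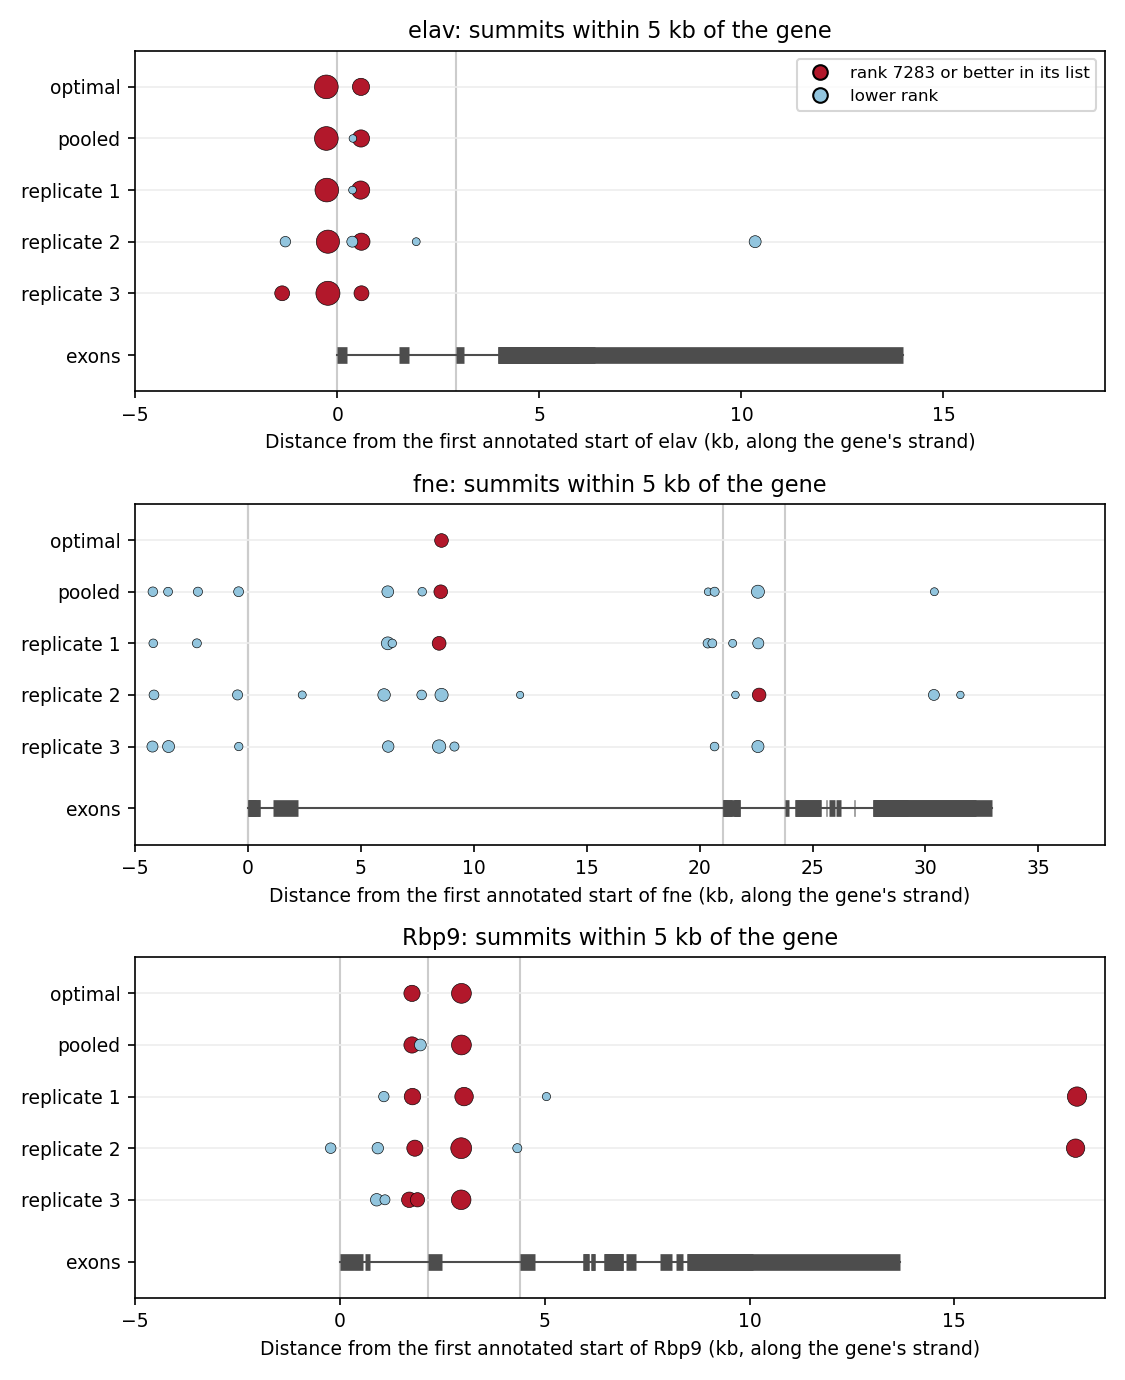
Summits within 5 kb of elav, fne and Rbp9 in the 5 lists, by distance in kb from the first annotated start along the gene's strand. Points grow with rank, red points rank 7283 or better in their list, blue points rank lower, grey vertical lines are start sites and dark blocks are exons. The red points in the optimal list stand on either side of 1 start site at elav and Rbp9, while fne has mostly blue points; the red points at the right edge of Rbp9 are at gammaTub23C.

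At fne, the optimal list held 1 summit, near its end, and none at a start site. fne (FBgn0086675) spans chrX:12917477-12950417 on the forward strand, is the longest of the family at 32.9 kb, and has 11 transcripts and 4 start sites. Its 1 optimal summit, at 12926011, lay in an intron 8527 bp downstream of the nearest TSS. It scored 88.7, just above the lowest score of the optimal list, 87.7, and ranked 7170 of 7283. It ranked 6858 in replicate 1, 8263 in replicate 2 and 7792 in replicate 3, a mean of 7638 ± 715 (SD, n = 3). All 3 replicates thus had it at a similar rank, with a ratio of 1.20, but only replicate 1 placed it among its 7283 highest peaks.

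The next fne summit of the pooled list, at 12940057, missed the optimal list, with a score of 76.1 and rank 8506. It lay 1215 bp upstream of the TSS at 12941272, within an intron of longer transcripts. Its ranks in replicates 1, 2 and 3 were 14043, 7234 and 10998, so that it was among the 7283 highest peaks in replicate 2 alone. A summit at 12923665 ranked 11990 in the pooled list, 8992 in replicate 1, where the summit was the same base, and 12722 in replicate 3, at 12923684. Replicate 2 had a summit at 12923501, at rank 9974. The first of these sites was thus matched in all 3 replicates, and the other by distance in replicates 1 and 3.

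The pooled summits within 500 bp of the start sites of fne ranked below the optimal list. Upstream of the first, a pooled summit at 12917059 ranked 18526, with summits at ranks 17557 and 24693 in replicates 2 and 3 and none in replicate 1. Upstream of the start site at 12938517, the pooled summit at 12938141 ranked 21700. An annotated HMS-Beagle transposon of 7057 bp in fne (chrX:12930633-12937689) held none of the summits. The labels do not say how reads from repeated sequence were treated, and its part in the result was not tested.

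**Figure D2:**
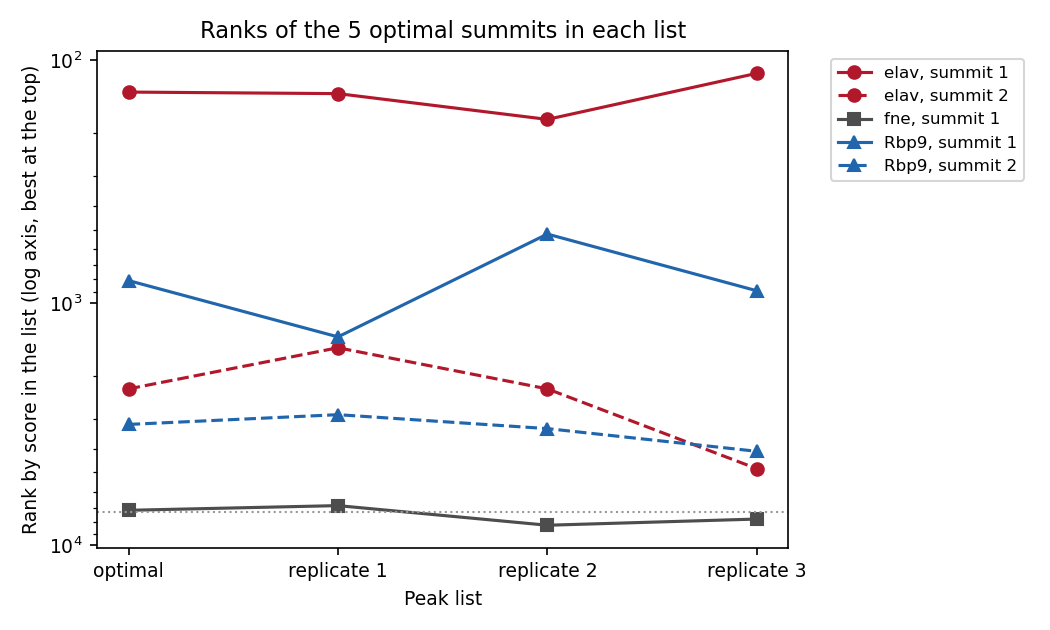
Rank by score (log axis, best at the top) of the 5 optimal summits in the optimal list and in replicates 1, 2 and 3; summit 1 is the stronger of each gene and the dotted line is rank 7283. The stronger elav summit stays between 113 and 175, and the fne summit lies at the line, between 6858 and 8263.

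By the stronger optimal summit of each gene, the order was elav, Rbp9 and fne in each of the 3 replicates. The replicate ranks were 113 to 175 at elav, 520 to 1381 at Rbp9 and 6858 to 8263 at fne. The optimal list, where these summits ranked 135, 809 and 7170, was made from the same replicates. That the replicates keep its order is therefore no separate result. For optimal peaks found in all 3 replicates at any rank, the median ratio of highest to lowest replicate rank number was 1.83. Over all protein-coding genes ordered by their highest optimal summit within 5 kb, elav stood at place 375 of 13968, in the first 2.68%, and Rbp9 at 1598 (11.4%). fne stood at 5725 (41.0%), near the end of the 5761 genes that had such a summit. Genes that share a summit share a place, and the elav summit is also the highest within 5 kb of arg and of CG4293.

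An optimal summit within 5 kb was found at all 3 genes, against 41.2% of all protein-coding genes. The share rose with length: it was 65.5% for genes of 10 to 20 kb, the range of elav and Rbp9, and 74.1% for genes of 20 to 50 kb, the range of fne. Among 965 genes of 10 to 20 kb, 53 stood as high as elav or higher and 209 as high as Rbp9 or higher. Among 707 genes of 20 to 50 kb, 522 stood as high as fne or higher. elav and Rbp9 had 2 optimal summits each, and 21.9% of all genes had 2 or more. Per kb of gene and flanks this was 0.0834 at elav, 0.0845 at Rbp9 and 0.0233 at fne, beside a mean of 0.0547 over all protein-coding genes. The share with 2 or more, this mean and the shares of all genes in the next paragraph were not computed by gene length.

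Optimal summits within 500 bp of a TSS were found at elav and Rbp9 and not at fne, and at 14.1% of all genes. Optimal summits that all 3 replicates held within 100 bp among their 7283 highest peaks were likewise found at elav and Rbp9, with 2 each, and at 31.4% of all genes. These are 4 of the 5 summits, beside 56.1% of all optimal peaks. Taking the 7283 highest peaks of each replicate in place of the optimal list, all 3 genes had a summit within 5 kb in replicate 1 (45.5% of all genes) and in replicate 2 (45.7%). In replicate 3 elav and Rbp9 had one and fne had none (44.0%).

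**Figure D3:**
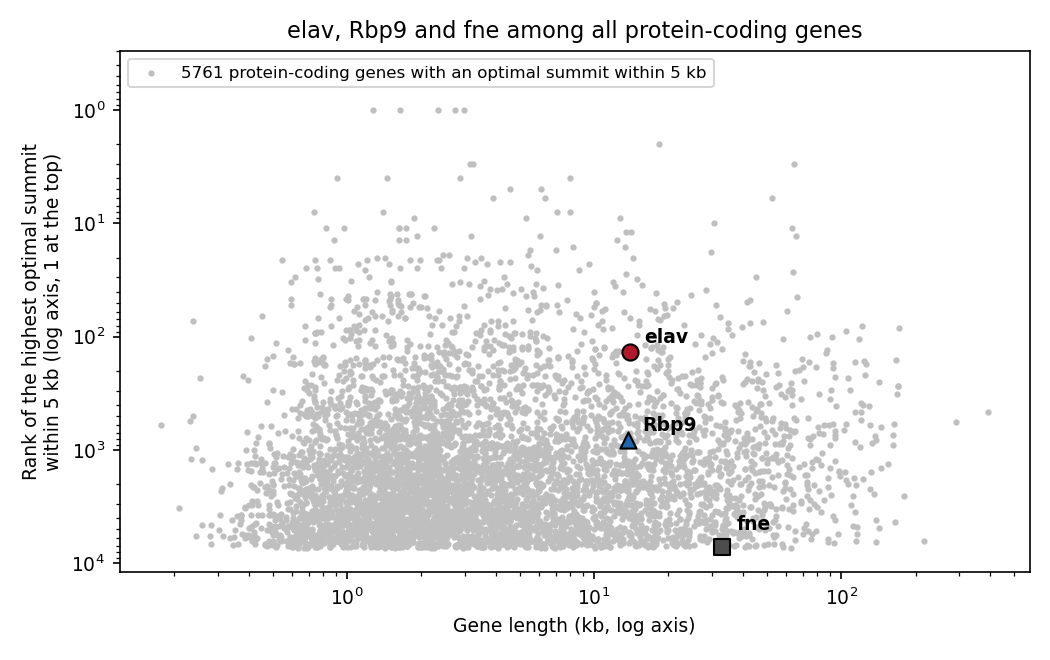
Rank of the highest optimal summit within 5 kb (log axis, 1 at the top) against gene length in kb (log axis) for the 5761 protein-coding genes that have one, with elav, Rbp9 and fne marked. elav lies high at rank 135, Rbp9 at 809, and fne at the lower edge at 7170.

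A strong peak at the far end of the Rbp9 window belonged to other genes and was not in all lists. Replicate 1 had a summit at 2L position 2972757, at rank 970 with score 113, and replicate 2 one at 2972722, at rank 1428 with score 105. They lay 134 and 169 bp upstream of the start of gammaTub23C, which encodes a gamma-tubulin, and within 500 bp of a start of Rrp1, a DNA repair nuclease gene. In replicate 1 this peak ranked above the strongest one in Rbp9 itself. In replicate 3 and in the pooled and optimal lists the nearest entry of any rank was 15.0 kb away, at the stronger Rbp9 summit.

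The letters at the 5 summits had little in common. Within 50 bp of the summit, the GAGA factor word GAGAG was found at the weaker elav summit, with 2 matches, and in 13.3% of all optimal peaks. The GATA factor word TGATAAG was found at the stronger elav summit and in 2.14% of optimal peaks. Of the other words, the most common at optimal peaks was the TATA box word TATAAA, in 20% of them, and it was at none of the 5. The E-box word CAGCTG, found in 3.02% of optimal peaks, was also at none of the 5. The same held for the E-box word CATATG (3.75%) and for the E-box word CACGTG (0.673%). None of the 5 held TATCGATA of DREF (0.522%), CAGGTAG of Zelda (0.384%), GGTCACACT of M1BP (0.275%) or TGACTCA of AP-1 (0.851%). Over the whole 100 bp on either side, GAGAG was also at the stronger Rbp9 summit (27.2% of optimal peaks), and TATAAA was at the fne summit and the stronger Rbp9 summit (33.3%). Both strands were searched, and none of these words holds another. Within 50 bp of the summit, the share of G and C was 58.4% at the weaker elav summit and 25.7% to 32.7% at the other 4 summits, beside a median of 32.7% over optimal peaks. The weaker elav summit was the only one of the 5 above the upper quartile of 39.6%.

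Sxl and ssx, which encode related RNA-binding proteins, differed in the same list. Sxl, the sex determination switch gene, had 5 optimal summits within 5 kb (chrX:7074550-7098053), 4 of them found in all 3 replicates and the highest at rank 1703 with score 257. ssx, sister of Sex-lethal, had no optimal summit (chrX:1370580-1375257). The 2 genes also differ in length, with 23504 bp for Sxl and 4678 bp for ssx. An optimal summit within 5 kb was found at 74.1% of genes of 20 to 50 kb and at 41.2% of all genes. In place, Sxl at 2670 stood between Rbp9 and fne.

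Other genes of RNA-binding proteins and of neurons were counted in the same way. Of 34 matched genes for neuronal and related RNA-binding proteins, 27 (79.4%) had an optimal summit within 5 kb and 18 (52.9%) had one within 500 bp of a TSS. The shares over all protein-coding genes were 41.2% and 14.1%. The median length of the list was 21.9 kb, and its share within 5 kb was near the 74.1% of genes of 20 to 50 kb. The highest were larp (score 2486, rank 2, 326 bp from a TSS), pum (1030, rank 84), mub (881, rank 131) and brat (698, rank 236). The mub summit lay outside the gene, 4421 bp from its nearest start, and those of larp, pum and brat inside. pum and brat encode translational repressors. mub and larp encode RNA-binding proteins of the KH and La-related kinds. larp, pum and mub stood above elav, and the rest of the list below it.

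Among 12 genes whose RNA is reported to be processed under ELAV, 9 (75%) had an optimal summit within 5 kb and 6 (50%) at a TSS. Their median length was 31.2 kb, and the share within 5 kb was near that of genes of 20 to 50 kb, 74.1%. The share at a TSS over all genes was 14.1%. The highest were pum and brat, also in the list above, then nej (546, rank 423), the CBP acetyltransferase gene, and Imp (295, rank 1387), an mRNA-binding protein gene. The nej summit lay outside the gene, 641 bp from its nearest start, and that of Imp inside. Of 20 genes of neuronal function, with a median length of 27.2 kb, 12 (60%) had an optimal summit within 5 kb, against 74.1% of genes of 20 to 50 kb. This list was named pan-neuronal but also holds genes of particular transmitter types, such as Gad1. At a TSS 2 of the 20 (10%) had one, beside 14.1% of all genes. The highest of these were Gad1 (694, rank 241), Syx1A (686, rank 245), Syt1 (449, rank 674) and Syn (366, rank 973). These 4 summits lay 15268, 3425, 25568 and 22967 bp from the nearest start of Gad1, Syx1A, Syt1 and Syn, and only that of Syn lay inside the gene. Of 20 genes of neural precursors and fate, with a median length of 3.34 kb, 13 (65.0%) had one within 5 kb and 6 (30.0%) at a TSS, against 41.2% and 14.1% of all genes. brat led them, followed by gcm (580, rank 366), elB (514, rank 488) and lola (428, rank 744). The summits of gcm and elB lay outside these genes, 5390 and 22823 bp from their nearest starts, and those of brat and lola inside. The first 3 lists hold mostly long genes, which carried a summit more often than all genes did, and genes that are neighbours can share a summit. The share at a TSS was not computed by gene length, so for each list only that of all genes is given. The shares of the 4 lists are descriptions and were not tested.

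**Figure D4:**
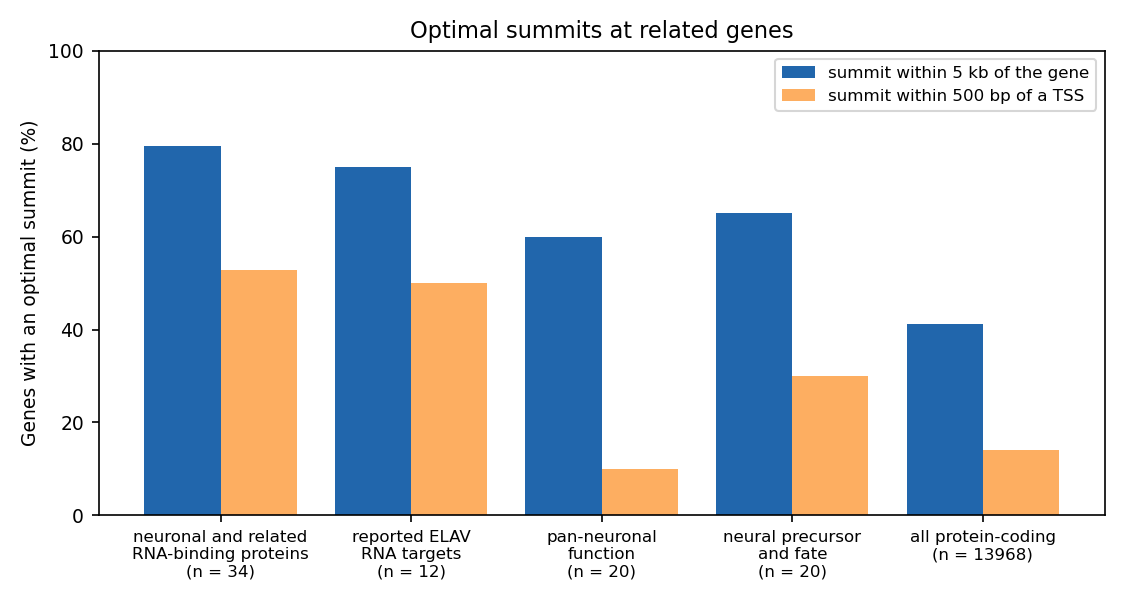
Percentage of genes with an optimal summit within 5 kb of the gene (blue) and within 500 bp of a TSS (orange) in 4 lists of related genes and, at the right, in all 13968 protein-coding genes. RNA-binding protein genes stand at 79.4% and 52.9%, beside 41.2% and 14.1% of all genes. The neuronal function list, labelled pan-neuronal in the plot, stands at 60% and 10%. Both lists hold mostly long genes, and 74.1% of genes of 20 to 50 kb had a summit within 5 kb.

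Some genes had summits of nearly the same rank in the pooled list and the 3 replicates. Likeness was measured as the distance between log10 ranks over these 4 lists, among 5232 genes whose highest optimal summit had a match within 100 bp, at any rank, in all 3 replicates. Nearest to elav were waw and bbx, which share a summit (distance 0.054, ranks 129, 134, 167 and 102), and baz (0.087). Nearest to Rbp9 were gas (0.079), CG13321 (0.082) and shf (0.095). Nearest to fne were CG8927, Bin1 and sra, which share a summit at ranks 6706, 7436, 7727 and 7375 (0.059).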

How the data were processed

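ChIP-seq of GFP-tagged Pif1A gave 5 deposited dm6 peak lists. The replicate and pooled lists were made from alignments and 1 shared control for use by IDR and hold background as well as peaks, and the optimal list was made from those 4, per the text deposited with the files. No source used here names the aligner, the peak caller or the IDR threshold. The signal value deposited by the authors ranks peaks within a list. The deposited −log10 q-value reaches a ceiling in many peaks and did not serve for ranking. Summits were placed by the offset that the authors deposited for each peak. Positions are 1-based on dm6, and the lists on dm3 were not used.

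Genes came from Ensembl release 115, leaving out transposable elements and pseudogenes, and every start of a transcript counted as a TSS. Summits of different lists were matched within 100 bp, taking the best ranked, among as many of the highest peaks per replicate as the optimal list holds (7283). The optimal list equals the 7283 highest pooled peaks, so it is not independent of the replicates. The replicates share a control, and what it contributes to their agreement was not tested.

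The members, gene lists, words and naming rule were chosen with earlier results of these data known. Genes named were the 3 members, genes at or near their summits, Sxl and ssx, the 3 nearest in rank pattern to each member, and the 4 highest of each list. The symbol nos in the first list, of 35, matched no single gene. Python 3.11.15 with pandas 2.3.3 and numpy 2.4.6 was used. On simulated data, all 200 planted summits were assigned to their genes and all 5101 kept summits were matched. They were placed within the distances then searched, so this is a check of the code alone. Alternatives changed the window, the list, the matching and the replicates used.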

Additional observations from a re-analysis of the deposited data

How the results depend on the processing

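The counts of optimal summits at elav, Rbp9 and fne, 2, 2 and 1, were the same with windows of 2 kb and 10 kb. Over all protein-coding genes, the share with such a summit was 28.7% at 2 kb, 41.2% at 5 kb and 57.1% at 10 kb. With the gene body alone elav kept 1, since its stronger summit lies upstream, Rbp9 kept 2 and fne 1. Then 1909 protein-coding genes (13.7%) had a summit in place of 5761. The fne summit depended on the list: keeping only optimal peaks above the median rank left 0, while 29.5% of all protein-coding genes still had a summit. Demanding a match among the 7283 highest peaks of the other replicates gave 0 to 0 at fne and 2 at elav and Rbp9 whichever of the 3 replicates was left out. Without replicate 1 or 2 the background was 34.1% of genes, and without replicate 3 it was 33.5%. Of the 5 summits, 4 were found in all 3 replicates by summit distance, 3 by an overlap of 50% of both lengths, which lost the narrow weaker elav peak, and 2 with N / 2 peaks per replicate, N being 7283, which kept the stronger elav and Rbp9 summits. All 5 were found with the whole lists, as were 86.8% of all optimal peaks, beside 56.1% among the 7283 highest peaks by summit distance. The shares of all optimal peaks by overlap and with N / 2 peaks were not computed. With 100 bp to either side there were 5 pairs of a word and a summit in place of 2, as a wider window holds more letters. No paired analysis was possible because the series holds 1 group. Read depth is unknown.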

Other observations

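The pair of replicate peaks at gammaTub23C was not alone in having no pooled counterpart. Of the 1492 peaks on the chromosome arms among the 1500 highest of replicate 1, 48 (3.22%) had no pooled summit within 250 bp at any rank. In replicates 2 and 3 this held for 67 (4.47%) and 32 (2.13%) of 1500. Of these, 39, 41 and 26 in replicates 1, 2 and 3 had a summit within 250 bp in another replicate. The pooled list is described as made from the alignments of all 3 replicates, and why it lacks these peaks was not tested.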
